A study of Mus musculus with 6 samples.

Results

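Tubulin isotypes are the closely related genes that encode the alpha and beta chains of the microtubule, and 10 of them were followed here by symbol in a table of 24419 genes: Tuba1a, Tuba1b and Tuba4a among the alpha chains, and Tubb2a, Tubb2b, Tubb3, Tubb4a, Tubb4b, Tubb5 and Tubb6 among the beta chains. All 10 were present in the table, and all 10 passed the filter for testing, a level of 1 or more in any 3 of the libraries, met by 14796 genes. RNA was sequenced from neuron-enriched cells of male mouse cerebral cortex, taken from the border of the infarct on day 4 after transient occlusion of the middle cerebral artery for 60 min. Cells were freed with pronase and sorted as Thy1+ and negative for ACSA2, CD31, CD45 and O4, surface marks of astrocytes, endothelium, leukocytes and oligodendrocytes. The cKO group (3 libraries) had the genotype Slc17a7-cre; Slc32a1-cre; Padi4flox/flox, in which Cre is driven from the genes of a glutamate and a GABA transporter of synaptic vesicles, and the control group (3 libraries) had Padi4flox/flox alone. Both groups thus had floxed Padi4 alleles and underwent stroke, and neither Cre without floxed alleles nor cortex without stroke was among the samples used here. The sources used here give neither the age of the mice nor whether each library came from 1 animal or a pool. The p-values therefore speak of the spread among these libraries, which may be technical. The question was whether transcripts differ in neurons lacking Padi4 after stroke.

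Microtubules are built from dimers of an alpha and a beta tubulin chain, and the chains of different genes differ most in their acidic C-terminal tails, which carry many of the enzymatic modifications read by motors and associated proteins. In brain, Tubb3 is the classical neuronal beta isotype. Tuba1a, Tubb2a and Tubb2b are abundant in neurons and their precursors, Tubb4a is prominent in myelinating oligodendrocytes as well as in neurons, and Tubb5, Tubb4b, Tubb6 and Tuba1b are found in many cell types.

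Sequences are shown for beta isotypes whose likeness limits how reads can be told apart, and for those that stand apart. Each is the last 60 coding bases before the stop codon, the part that encodes the C-terminal tail, from GENCODE transcripts on mm10, read 5′ to 3′ on the gene's strand. Capitals mark bases that differ from, or are inserted relative to, Tubb2a (for Tubb2b) or Tubb5 (for Tubb3 and Tubb4a) in an alignment of the whole coding sequences.
Tubb2a, chr13:34074471-34074530, minus strand: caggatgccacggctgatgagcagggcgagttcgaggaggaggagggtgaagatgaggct
Tubb2b, chr13:34127474-34127533, minus strand: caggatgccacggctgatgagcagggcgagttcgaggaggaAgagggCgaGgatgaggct
Tubb5, chr17:35834985-35835044, minus strand: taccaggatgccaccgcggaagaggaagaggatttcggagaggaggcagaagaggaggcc
Tubb3, chr8:123421620-123421679, plus strand: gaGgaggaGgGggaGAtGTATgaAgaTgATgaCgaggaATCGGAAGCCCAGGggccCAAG
Tubb4a, chr17:57080693-57080752, minus strand: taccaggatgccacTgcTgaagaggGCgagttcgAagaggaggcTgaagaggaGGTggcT

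The stretch of Tubb2b held 3 capitals, against 10 in Tubb4a and 32 in Tubb3. Over the whole coding sequence Tuba1a and Tuba1b were 98.3% identical and Tubb2a and Tubb2b 96.5%. These are also neighbours in the genome, with 15271 bases between Tuba1b and Tuba1a on chromosome 15 and 48740 between Tubb2a and Tubb2b on chromosome 13. The beta genes other than Tubb6 had a median identity of 83.6% over 15 pairs, with the lowest 81.3% between Tubb3 and Tubb5.

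How far this could blur the counts was measured as the share of 50-base windows of each gene's principal transcript that also occur, on either strand, in an annotated transcript of another gene. Tubb3 and Tubb6 had no such window, Tubb4a had 0.184% and Tubb5 0.115%. The share was 83.1% for Tuba1b and 75.5% for Tuba1a, most often with Tuba1c, 49.6% for Tubb2a and 39.3% for Tubb2b, mostly with each other, and 55.5% for Tubb4b, mostly with its pseudogene Tubb4b-ps1. Tuba4a had 48.8%, nearly all with Stk16, a kinase gene on the opposite strand that overlaps it and was itself at 14.7 to 29.1 in these libraries. Read length, strand setting and how multiply matching reads were counted are not stated in the sources used here, so the levels of these 6 genes are uncertain on this account. Tubb3 shares no window but overlaps the annotated span of Gm20388, and Tuba1a and Tuba1b overlap that of Gm49450. Both genes lie on the same strand as the isotypes, and neither has a row among the deposited values.

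**Figure D1:**
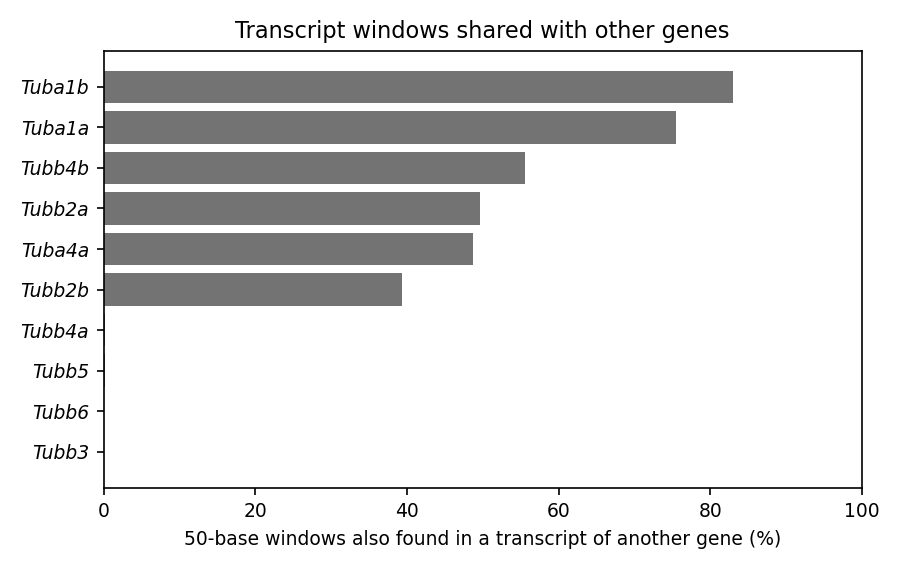
Percent of 50-base windows of each isotype's principal transcript (horizontal axis) that also occur in a transcript of another gene, with 1 bar for each gene. Tuba1b (83.1%) and Tuba1a (75.5%) share the most, and Tubb3 and Tubb6 share none.

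The libraries held 10094145 to 24056755 reads in genes, recovered from the deposited values, and levels are given in the deposited unit, scaled CPM, that is counts scaled to library depth. Padi4, the targeted gene, did not bear out the labels. The libraries labelled cKO held 0, 3 and 12 Padi4 reads in replicates 1 to 3, and each library labelled control held 0, which allows up to 0.167 to 0.277 scaled CPM (3 reads). Permuting the labels exactly, on the log2(value + 1) of Padi4 and two-sided, gave p = 0.4, where the smallest possible is 0.1. Gene totals do not tell reads in deleted exons from others, and cKO and control below mean the libraries so labelled. Neuronal markers were present, with 0 of 18 at 0 in any library and Snap25, a synaptic membrane fusion gene, at 384 to 2619 in cKO and 984 to 1538 in control libraries. Oligodendrocyte markers exceeded them throughout, their 18 genes summing to 13510 to 42934 scaled CPM in cKO and 25310.1 to 34746 in control libraries, although O4+ cells had been gated out, against pan-neuronal sums of 3006 to 11307 in cKO and 4745 to 8342 in control libraries. Mural and fibroblast markers summed to 248 to 3055 in cKO and 511 to 5090.5 in control libraries, and astrocyte markers to 1183 to 2496 in cKO and 899 to 1362 in control libraries. Oligodendrocyte precursor markers summed to 2051 to 3640.3 in cKO and 2539.7 to 2876 in control libraries. Endothelial, microglial and ependymal markers summed to at most 178 in any library. With sorted bulk RNA, fewer cells of a type and less RNA per cell cannot be told apart.

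Between genes, levels were compared per kilobase of coding length, as means over all 6 libraries with their SD. Tubb4a was the most abundant isotype, at 1362 ± 339.7 scaled CPM per kb. Tuba1a followed at 362 ± 135, Tubb5 at 240.3 ± 88.9 and Tuba1b at 106 ± 47.2. Tubb4a lay above the whole range of Tuba1a, and Tuba1a, Tubb5 and Tuba1b kept this order within each of the 6 libraries although the ranges of neighbours overlapped. Tuba1b in turn lay above Tubb3 in 5 of 6.

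Lower down the order was not settled. Tubb3 was at 74.4 ± 24.3 scaled CPM per kb and Tubb4b at 63.8 ± 24.6, with Tubb3 the higher in 4 of 6 libraries. Tuba4a was at 58.2 ± 46.0, Tubb2a at 51.8 ± 16.3, Tubb2b at 32.2 ± 19.0 and Tubb6 at 20.4 ± 14.3. No neighbours among these 6 were separated beyond the spread of the libraries, and dividing by the length of the principal transcript instead placed Tubb2a above Tuba4a.

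**Figure D2:**
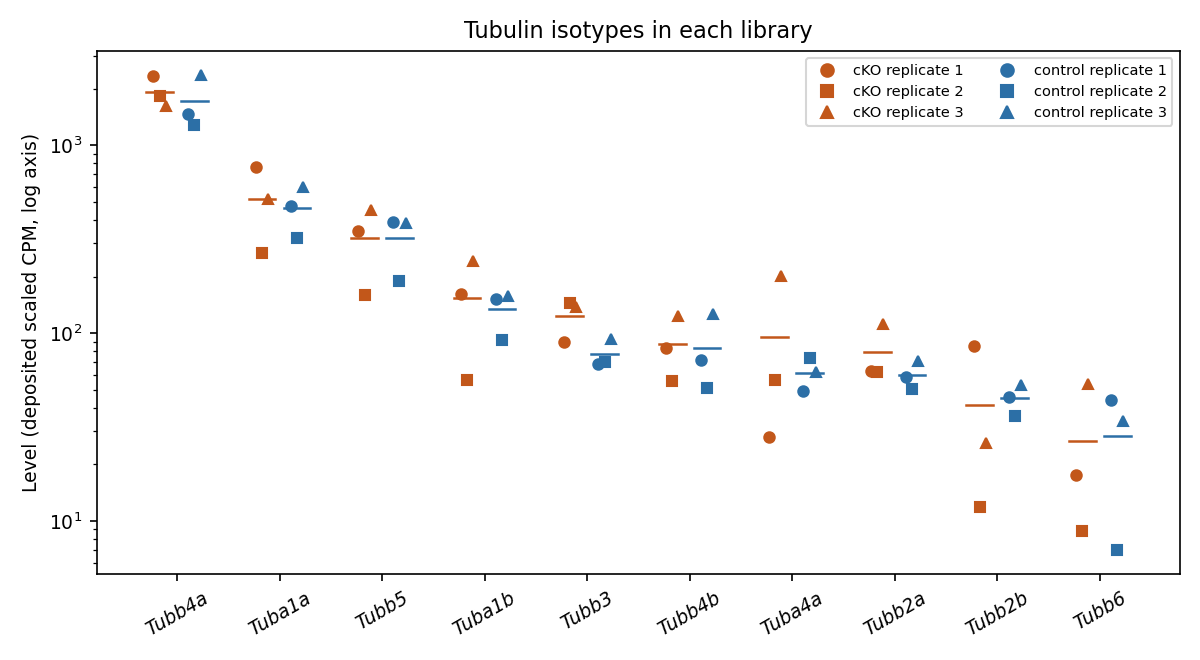
Level of each isotype in scaled CPM (vertical log axis), with the isotypes in order of mean level per coding length, cKO libraries left of control libraries, a symbol for each replicate and a line at each group mean. Tubb4a lies between 1280.4 and 2379.5 in all 6 libraries, and Tuba4a, Tubb2b and Tubb6 spread most between libraries.

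In the comparison of cKO with control, 0 of the 10 isotypes passed an adjusted p of 0.05 (limma with Benjamini-Hochberg adjustment over all genes), and 0% of all tested genes did so in either direction. The smallest adjusted p over all genes was 0.9996. Without adjustment, p was under 0.05 for 50 genes with a higher level in cKO (0.338%) and 76 with a lower one (0.514%), and 0 of these were isotypes. These counts rested on single libraries, with 432 higher and 535 lower without cKO replicate 1, where the smallest adjusted p by limma was 0.619, and 14 higher and 39 lower without cKO replicate 2. On the recovered reads edgeR called 0 genes and DESeq2 called 1, which was not an isotype. The groups overlapped in all 10 isotypes, where every cKO library lay above every control library in 2.45% of genes and below in 2.26%. The median log2 fold change, cKO minus control, was 0.09 over the isotypes and -0.02 over all genes, and 7 of the 10 isotypes had a positive value, against 48% of all genes. Of those 7, Tuba1a turned negative under quantile normalization, Tuba1b under quantile normalization and median-of-ratios scaling, and Tubb4a with array weights. The median itself was 0.42 without cKO replicate 2 and -0.28 without cKO replicate 3, so its sign rested on single libraries.

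**Figure D3:**
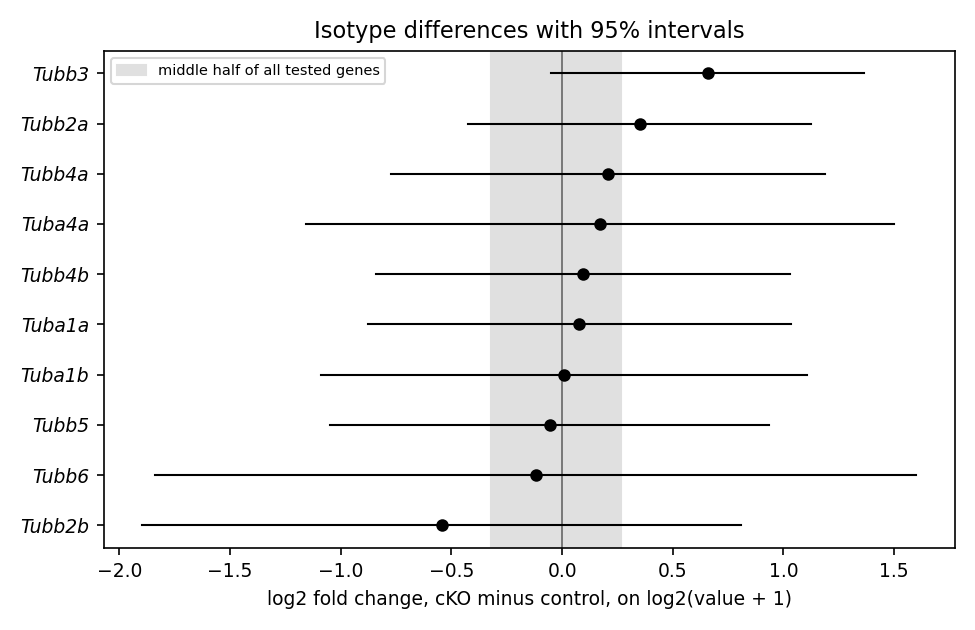
Log2 fold change of each isotype, cKO minus control, on log2(value + 1) (points), with 95% intervals from limma (lines) and the interquartile range of all tested genes, -0.32 to 0.27, as a grey band. All 10 intervals include 0, with Tubb3 the nearest to excluding it at -0.05 to 1.37.

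Tubb3, the neuronal beta isotype on chromosome 8, had the largest positive difference of the 10 in the main fit. Its level was 90.0, 144 and 137 scaled CPM in cKO libraries 1 to 3, and 68.6, 70.0 and 93.4 in control libraries 1 to 3. The groups overlapped only through cKO replicate 1, which lay below control replicate 3. The means were 124 ± 29.6 in cKO and 77.3 ± 13.9 in control libraries (SD, n = 3 each), a log2 fold change of 0.66 (SE 0.32, limma unadjusted p = 0.0654, adjusted p = 0.9996). Over 18 alternative settings, some of which cannot alter a fold change, the value ran from 0.47 to 0.87. Tubb3 passed the adjusted threshold in none of them. It was not the largest in each: with array weights Tuba4a was at 0.69 and Tubb3 at 0.58. Without cKO replicate 2, Tuba1b was at 0.60 and Tubb3 at 0.53.

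Neuronal content also differed between the libraries. Of the 18 pan-neuronal markers, which hold no tubulin, 13 had a positive log2 fold change and 0 were called. They summed to 3006, 9571 and 11307 scaled CPM in cKO libraries 1 to 3 and to 4745, 8342 and 6005 in control libraries 1 to 3. Tubb3 amounted to 2.99%, 1.51% and 1.22% of that sum in the cKO libraries, and to 1.45%, 0.839% and 1.56% in the control libraries. The library with the lowest neuronal sum, cKO replicate 1, had the highest Tubb3 relative to it. The part of neuronal content in the Tubb3 difference was not tested.

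Tubb4a, the beta isotype of oligodendrocytes and neurons on chromosome 17, was at 2329, 1837 and 1614 scaled CPM in cKO libraries 1 to 3, and at 1470.3, 1280.4 and 2379.5 in control libraries 1 to 3. The highest and the lowest library were both controls. Its log2 fold change was 0.21 (SE 0.44), with an interval of -0.77 to 1.19. Between the lowest and the highest library Tubb4a differed 1.86-fold, the least of the 10, while the sum of oligodendrocyte markers differed 3.18-fold. Of these 18 markers 17 had a negative log2 fold change and 0 were called, and 0 were at 0 in any library. Tubb4a was 5.42%, 7.80% and 11.9% of the oligodendrocyte sum in cKO libraries 1 to 3, and 4.23%, 5.06% and 7.82% in control libraries 1 to 3. In cKO replicate 3, where the oligodendrocyte sum was the lowest and the neuronal sum the highest, Tubb4a was largest relative to the oligodendrocyte markers. The part of oligodendrocyte and neuronal content in the Tubb4a levels was not tested.

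**Figure D4:**
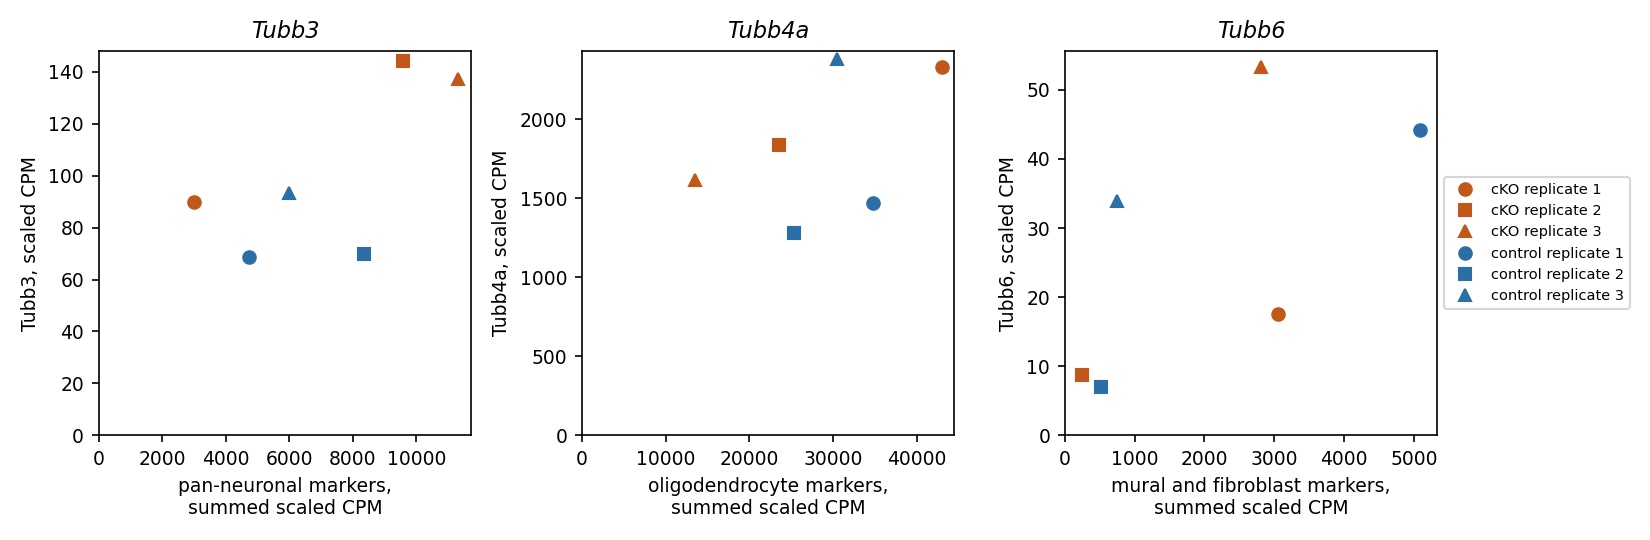
Level of Tubb3, Tubb4a and Tubb6 (vertical axes, scaled CPM) against the summed level of pan-neuronal, oligodendrocyte, and mural and fibroblast markers (horizontal axes, scaled CPM), 1 point for each library. Tubb3 is highest in the cKO replicates 2 and 3, which also have the highest neuronal sums, and Tubb6 is lowest in both libraries numbered 2, which have the lowest mural sums.

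Within beta tubulin, Tubb4a made up most of the summed level in every library. Per coding length its share of the 7 beta members was 77.2%, 80.7% and 64.2% in cKO libraries 1 to 3, and 68.4%, 76.1% and 75.8% in control libraries 1 to 3. Tubb3 held 2.94%, 6.26% and 5.39% in the cKO libraries, and 3.15%, 4.11% and 2.94% in the control libraries. Per coding length Tubb3 was thus a small part of beta tubulin RNA in all 6 libraries of cells sorted as neurons, and its share in cKO replicate 1 lay within the range of the controls.

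The ratio of Tubb4a to Tubb3 was lowest in cKO replicates 2 and 3. As levels without length scaling, it was 25.9, 12.7 and 11.7 in cKO libraries 1 to 3, and 21.4, 18.3 and 25.5 in control libraries 1 to 3. The groups overlapped through cKO replicate 1, the library with the lowest neuronal and the highest oligodendrocyte sum. Shares and ratios over chosen members are given as a description, with no test.

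**Figure D5:**
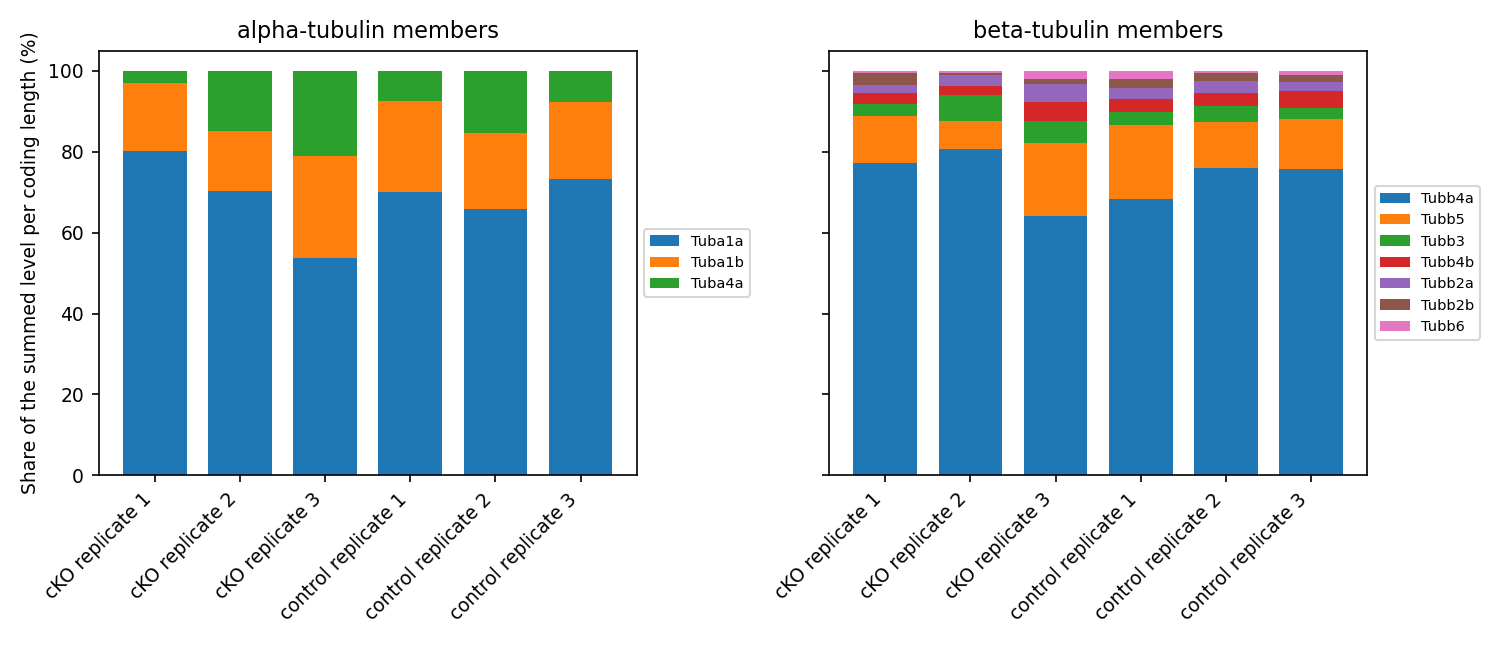
Share of each isotype in the summed level per coding length (vertical axis, percent), for the 3 alpha members on the left and the 7 beta members on the right, in each library, cKO libraries first. Tubb4a takes 64.2% to 80.7% of the beta members, and Tuba1a takes 53.8% to 80.1% of the alpha members. Both shares are lowest in cKO replicate 3. The alpha members leave out Tuba1c and Tuba8, which were also present.

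All 10 isotypes together took 0.398%, 0.261% and 0.343% of the summed table in cKO libraries 1 to 3, and 0.288%, 0.226% and 0.385% in control libraries 1 to 3. The summed level of the beta members was 3.15, 6.0 and 2.62 times that of the alpha members in the cKO libraries, and 3.19, 3.47 and 3.86 times in the controls. The ratio was thus highest in cKO replicate 2, where the alpha sum was the lowest, 379.7 scaled CPM, and the cKO range enclosed the controls.

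Among the alpha chains, Tuba1a, the main alpha isotype of developing neurons, was at 768, 267 and 516 scaled CPM in cKO libraries 1 to 3, and at 473, 319.8 and 596 in control libraries 1 to 3. The cKO libraries enclosed all the controls, and the log2 fold change was 0.08 (SE 0.43), or -0.27 without cKO replicate 1. Tuba1b, a broadly expressed alpha isotype, was at 162, 56.6 and 242 in the cKO libraries, and at 152, 92.2 and 157 in the controls. Its log2 fold change was 0.01 (SE 0.49), and again the cKO range enclosed the controls. Without cKO replicate 2 it was 0.60, and without cKO replicate 3 it was -0.43.

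Tuba4a, an alpha isotype of brain and muscle whose gene (chr1:75214228-75219865, minus strand) encodes no C-terminal tyrosine, was set apart by a single library. It was at 28.1, 56.2 and 201 scaled CPM in cKO libraries 1 to 3, and at 49.2, 73.9 and 61.7 in control libraries 1 to 3. Both the highest and the lowest value were cKO libraries, a 7.15-fold range, and the same libraries, cKO replicates 3 and 1, were the highest and the lowest in the pan-neuronal sum. The log2 fold change was 0.17 (SE 0.60) and became -0.60 without cKO replicate 3 and 0.80 without cKO replicate 1. It was 0.62 by edgeR, 0.58 by DESeq2 and 0.69 with array weights. The share of Tuba4a among the 3 alpha members per coding length was 2.95%, 14.9% and 21.1% in the cKO libraries, and 7.34%, 15.3% and 7.62% in the controls. Relative to the pan-neuronal sum it was 0.935%, 0.587% and 1.78% in the cKO libraries, and 1.04%, 0.886% and 1.03% in the controls, so that cKO replicate 3 stayed the highest. The part of neuronal content in the Tuba4a levels was not tested.

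Tubb2a and Tubb2b, near-identical beta isotypes of neurons, did not move alike between libraries. Tubb2a was at 62.9, 62.0 and 112 scaled CPM in cKO libraries 1 to 3, and at 58.1, 50.5 and 70.8 in control libraries 1 to 3. Tubb2b was at 85.8, 11.9 and 25.9 in the cKO libraries, and at 45.5, 36.2 and 53.0 in the controls. The control values of Tubb2b lay between those of cKO replicate 1 and the other cKO libraries. The log2 fold change was 0.35 (SE 0.35) for Tubb2a and -0.54 (SE 0.61) for Tubb2b, the most negative of the 10. On recovered reads Tubb2b was at -0.12 by edgeR and -0.14 by DESeq2, and without both libraries numbered 2 it was -0.05, where Tubb6, at -0.33, was lower. Leaving out cKO replicate 2 gave 0.09 for Tubb2b, and leaving out cKO replicate 1 gave -1.28. Over the 6 libraries the log2 levels of Tubb2a and Tubb2b had a Pearson r of -0.17, against 0.81 for Tuba1a and Tuba1b, the other near-identical pair. Tuba1a and Tuba1b shared more windows with transcripts of other genes, 75.5% and 83.1%, against 49.6% for Tubb2a and 39.3% for Tubb2b. The part of shared reads in these r values was not tested. Tubb2b is also a gene of radial glia, and its level was 6.0%, 0.478% and 2.19% of the astrocyte marker sum in cKO libraries 1 to 3, and 4.07%, 2.66% and 5.90% in control libraries 1 to 3. Of the 14 astrocyte markers 13 had a positive log2 fold change, with a median of 0.56, 0 called and 0 at 0 in any library. Their sum was the highest in cKO replicate 2, where Tubb2b was the lowest, and their part in the Tubb2b levels was not tested.

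The broadly expressed beta isotypes Tubb5 and Tubb4b had differences well within their standard errors. Tubb5, on chromosome 17, was at 351, 159 and 452 scaled CPM in cKO libraries 1 to 3, and at 391, 189 and 384 in control libraries 1 to 3. In each group replicate 2 was the lowest, and the log2 fold change was -0.06 (SE 0.45), with an interval of -1.05 to 0.94. Leaving out cKO replicate 2 gave 0.38 for Tubb5. Tubb4b, which also builds the microtubules of cilia and lies at chr2:25222160-25224702 on the minus strand, was at 83.7, 55.4 and 123 in the cKO libraries, and at 71.7, 51.1 and 127 in the controls (log2 fold change 0.10, SE 0.42, and -0.20 without control replicate 2). Of 9 ependymal and ciliated cell markers 3 were tested, with 1 positive and 2 negative values, a median of -0.55 and 0 called, and 2 to 6 of the 9 were at 0 in each library. Foxj1, a regulator of ciliated cells and the positive one, was at 13.9, 26.0 and 10.5 in the cKO libraries, and at 8.57, 1.40 and 9.89 in the controls. Its highest library, cKO replicate 2, had the lowest Tubb4b among the cKO libraries. In that library 6 of the 9 markers were at 0, and Foxj1 made up most of their sum of 27.9. Foxj1 alone thus does not stand for the list there. The part of ciliated cells in the Tubb4b levels was not tested.

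Tubb6, the lowest of the 10, had the widest range, 7.63-fold. It was at 17.5, 8.79 and 53.3 scaled CPM in cKO libraries 1 to 3, and at 44.2, 6.99 and 33.9 in control libraries 1 to 3, from 87 to 1267 reads. Replicate 2 was the lowest in each group, and the log2 fold change was -0.12 (SE 0.77), or 0.45 without cKO replicate 2. The mural and fibroblast markers, 13 genes of vessel walls and connective tissue, had 3 positive and 10 negative values with 0 called, and 1 of them, Lum, was at 0 in cKO replicate 2. They summed to 3055, 248 and 2809 in cKO libraries 1 to 3, and to 5090.5, 511 and 752 in control libraries 1 to 3. Col1a2, a fibrillar collagen gene of that list, was at 506, 4.95 and 559 in the cKO libraries, and at 1047, 54.0 and 46.4 in the controls. Both libraries numbered 2 were low in Tubb6 and in these markers, and they had the fewest detected genes of their groups, 14042 in cKO and 15261 in control. Tubb6 amounted to 0.573%, 3.55% and 1.90% of the mural sum in the cKO libraries, and to 0.869%, 1.37% and 4.50% in the controls. The part of these markers and of the number of detected genes in the Tubb6 levels was not tested.

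Among the isotypes themselves, log2 levels over the 6 libraries ran most closely together for Tuba1b and Tubb5 (Pearson r = 0.96) and for Tubb5 and Tubb6 (r = 0.93). Tubb3 stood at -0.10 with Tuba1b and with Tubb5, and at -0.66 with Tubb2b, the lowest of the 45 pairs. All pairs share the same libraries, with their depth and marker content, and the values are a description.

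The genes whose log2 level followed an isotype most closely over the 6 libraries were named from 10294 others with a mean of at least 10. For Tubb3 these were Apbb1 (Pearson r = 0.984), Id2, Slc27a4, Ramp1 and Mmp16, the last at r = 0.967. For Tubb4a they were Ago4 (r = 0.965), the endothelial gene Vwf, Tom1, Ubl3 and Ercc2 (r = 0.940). For Tubb6 they were Arpc5l (r = 0.996), Pgd, Stip1, Hsp90ab1 and Ahsa1 (r = 0.982), of which Stip1, Hsp90ab1 and Ahsa1 encode the Hsp90 chaperone or its partners. None of the Tubb3 and Tubb4a names was on the marker lists of neurons or oligodendrocytes. These, too, are a description over 6 libraries, with no test.

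Other genes of the tubulin pathway were read from 4 lists, in which 0 genes passed the adjusted threshold. Among the other tubulin genes, 6 of 10 were tested, with 5 positive and 1 negative log2 fold change and a median of 0.37. This median was 0.07 without cKO replicate 3, 0.16 without cKO replicate 2, 0.11 without control replicate 2 and 0.04 with no filter. Tubg1, the gamma tubulin that nucleates microtubules at centrosomes, was at 25.8, 33.2 and 24.8 in cKO libraries 1 to 3, and at 12.8, 20.8 and 21.5 in control libraries 1 to 3. Every cKO library lay above every control library for Tubg1, at a log2 fold change of 0.60 (SE 0.43, limma adjusted p = 0.9996). Tuba1c, the close relative of Tuba1a and Tuba1b, was at 25.5 ± 14.0 in cKO and 17.2 ± 11.6 in control libraries (SD, n = 3 each). Tubg2, the other gamma tubulin, was at 19.7 ± 11.6 in cKO and 12.6 ± 4.09 in control libraries. Tuba8, a divergent alpha isotype, was at 10.5 ± 7.41 in cKO and 7.17 ± 5.16 in control libraries. The delta and epsilon tubulins of centrioles were low. Tubd1 was at 5.60 ± 1.89 in cKO and 5.88 ± 3.03 in control libraries, and Tube1 at 2.10 ± 1.68 in cKO and 3.36 ± 2.55 in control libraries. Tubb1, the platelet beta isotype, was not tested and reached at most 5 reads in a library, and Tuba3a, Tuba3b and Tubal3 stayed at or below 2 reads.

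Factors that fold and assemble tubulin, namely the chaperonin, prefoldin and the tubulin cofactors, were all tested, 22 of 22, with 8 positive and 14 negative values and a median of -0.18. This median was 0.12 without cKO replicate 2. Tbcb, an alpha tubulin cofactor, was at 31.5 ± 9.36 in cKO and 19.0 ± 3.78 in control libraries. Cct5, a chaperonin subunit, was at 141, 23.0 and 137 in cKO libraries 1 to 3, and at 162, 75.8 and 173 in control libraries 1 to 3. Pfdn5, a prefoldin subunit, was at 38.5, 3.23 and 33.9 in the cKO libraries and 36.8, 29.1 and 38.8 in the controls. For Cct5 and Pfdn5 the lowest library was cKO replicate 2, as it was for Tuba1a, Tuba1b, Tubb2b and Tubb5. Of the 6 libraries, cKO replicate 2 also had the fewest reads in genes (10094145), the fewest detected genes (14042) and the lowest array weight (0.36). The part of these in its low levels was not tested.

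Enzymes that modify tubulin split evenly, with 10 positive and 10 negative values among 20 tested of 25 and a median of 0.04, which was -0.15 without cKO replicate 2. Ttll4, a glutamylase, was at 31.4, 25.3 and 24.2 in cKO libraries 1 to 3, and at 33.1, 50.5 and 50.9 in control libraries 1 to 3, so that the groups did not overlap (log2 fold change -0.70, SE 0.37, limma adjusted p = 0.9996). Vash1, a carboxypeptidase that removes the terminal tyrosine of alpha tubulin, was at 55.5, 61.9 and 38.3 in the cKO libraries, and at 37.7, 32.2 and 32.7 in the controls, also without overlap (log2 fold change 0.56, SE 0.35). Its relative Vash2 was at 4.87 ± 2.73 in cKO and 10.4 ± 4.05 in control libraries. Ttll13, a glutamylase gene, also lay higher in every cKO library, at 1.30, 4.14 and 1.56 against 0.461, 0.294 and 0.778 in the controls. It was named after its values were seen, and it reached the filter level of 1 only in the cKO libraries. Its place among the tested genes thus came from the group where it was higher.

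Genes of microtubule nucleation and severing were all tested, 25 of 25, with 11 positive and 14 negative values and a median of -0.13, which was 0.08 without cKO replicate 2. Haus3 and Haus1 encode subunits of augmin, which branches new microtubules from existing ones, and Nedd1 recruits gamma tubulin. Haus3 was at 11.7 ± 6.84 in cKO and 21.7 ± 2.96 in control libraries, and Nedd1 at 13.3 ± 9.43 in cKO and 23.9 ± 3.35 in control libraries. Haus1 differed the other way, at 14.5 ± 7.53 in cKO and 8.22 ± 6.45 in control libraries. In this list 0 genes separated the groups. The 4 lists held 6, 22, 20 and 25 tested genes. Over these the cKO libraries lay wholly above the controls for 3 genes (Tubg1, Vash1 and Ttll13) and wholly below for 1 (Ttll4). Among them Ttll13 had passed the filter only through the cKO libraries. Over all tested genes 2.45% lay wholly above and 2.26% wholly below, so a few such genes are found in lists of this size without any link to tubulin.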

How the data were processed

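The deposited table holds 1 column of scaled CPM per library, a normalized signal made by the authors, with Trimmomatic, HISAT2, featureCounts, edgeR and the mm10 build named in the submitters' processing notes. Column totals ran from 961962 to 1027958, so the values are CPM rescaled per library, where the design had assumed plain CPM. All values were within 0.05 of a whole multiple of 1 step per library (100%), and whole reads were recovered from that step. Groups were compared by limma 3.58.1 (R 4.3.3, trended variance) on values to which 1 was added before taking log2, for genes at 1 or more in at least 3 libraries, called at an adjusted p of 0.05 over all genes. Fold changes on this scale understate the change of low genes. Alternatives used edgeR 4.0.16 and DESeq2 1.42.0 on recovered reads, other pseudocounts, filters, scalings and weights, a replicate block, and leaving out libraries. The procedure was also run on simulated counts, with an outcome not reported here. Their genes varied independently, without the differences in marker content that these libraries share, so the run cannot measure errors from such differences. Reads are not shown to be independent molecules.

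Principal transcripts (the longest coding and then the longest overall of the highest APPRIS rank), coordinates and sequences came from GENCODE annotation of mm10. Alignments used Biopython 1.88. The members and lists were chosen with earlier results of these data known. Named genes were the 10 isotypes, Padi4, 3 genes by smallest unadjusted p from each pathway list, the other tubulin genes with at least 3 reads in a library, example markers (1 of them not reported here), and 5 genes by Pearson r for Tubb3, Tubb4a and Tubb6.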

Additional observations from a re-analysis of the deposited data

How the results depend on the processing

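Over 18 alternative settings, 0 isotypes were called in any of them, and the number of genes called over the whole table was 0 in each except DESeq2, at 1. Of 180 log2 fold changes of isotypes under these settings, 21 turned sign. Tuba1b became -0.010 with median-of-ratios factors and -0.0083 with quantile normalization, Tuba1a became -0.014 with quantile normalization, and array weights gave -0.050 for Tubb4a and 0.028 for Tubb5. Leaving out replicate 2 of both groups, which was added after seeing the data, gave 0.039 for Tubb5. With 1 library left out, log2 fold changes ran from -0.27 to 0.49 for Tuba1a (without cKO replicates 1 and 2), -0.43 to 0.60 for Tuba1b (cKO 3 and 2), -0.60 to 0.80 for Tuba4a (cKO 3 and 1), 0.08 to 0.49 for Tubb2a (cKO 3 and 2), -1.28 to 0.092 for Tubb2b (cKO 1 and 2), 0.53 to 0.87 for Tubb3 (cKO 2 and 1), 0.03 to 0.47 for Tubb4a (control 2 and 3), -0.20 to 0.45 for Tubb4b (control 2 and 3), -0.40 to 0.38 for Tubb5 (control 2 and cKO 2) and -0.89 to 0.45 for Tubb6 (control 2 and cKO 2). Tubb3 and Tubb2a were positive in each setting, but no filter, the filter at 5, robust eBayes and the replicate block leave every isotype's fold change as it was by construction and could turn no sign. On recovered reads edgeR gave 0.16 for Tuba1a, 0.20 for Tuba1b and -0.0052 for Tubb5. The cause of these shifts was not tested. Differences in isotype share, cKO minus control, moved by less than the spread between replicates in 20 of 20 values. These values were taken with no length scaling or per transcript length, the second chosen after seeing the data. Coding lengths ran from 1335 to 1356 bases, so dropping the length scaling could hardly move a share. The shares themselves depended on the length used. The mean share of Tubb4b over the 6 libraries was 3.41% per coding length and 4.69% per transcript length.

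With a replicate block 0 genes and 0 isotypes were called. In this balanced design the block cannot move a fold change, so Tubb3 has the same 0.66, and at an unadjusted p under 0.05 limma then gave 110 genes higher and 197 lower. The labels name no shared animal, litter or day, so the numbers were not taken to pair the samples. Deviations from the group means correlated at 0.49, 0.30 and 0.03 for libraries with the same number, and at -0.40 to 0.03 for the others. On these deviations each library correlated best with its own number in the other group. For control replicate 3 this was only by 0.0338 against 0.0281 with cKO replicate 2. Deviations within a group are tied to each other by construction, so these values are not independent. Of all pairs of libraries, cKO replicate 1 and control replicate 1 had the highest Pearson r of log2 levels, 0.971. On log2 levels cKO replicate 2 was closer to control replicate 3 (0.839) than to control replicate 2 (0.834). Whether a shared number marks a shared source was not tested. With 3 libraries a group, the median SE over all genes was 0.54 on the log2 scale. The printed intervals are not adjusted for the number of genes, so a call needed more than an interval without 0. In the main fit 50 genes higher and 76 lower had an unadjusted limma p under 0.05, and 0 were called. Differences too small for a call are therefore not excluded.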
